A study of Homo sapiens with 2 samples.

Results

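Insulin-like growth factors are small secreted ligands that act through the tyrosine kinase receptor IGF1R and, in part, through the insulin receptor INSR. IGF2R, the cation-independent mannose 6-phosphate receptor, binds IGF2 at the cell surface and carries it to lysosomes. The IGFBP proteins bind the ligands outside the cell and hold or release them. The IGF2BP proteins are not part of the secreted system: they are cytoplasmic RNA-binding proteins, named for the IGF2 mRNA, that bind and stabilise many transcripts and are mostly made in the embryo and in tumours. The 10 genes described here were the ligand gene IGF2, the binding protein genes IGFBP2, IGFBP4 and IGFBP5, the receptor genes IGF1R, IGF2R and INSR, and the 3 IGF2BP genes. They were taken by name from a table of 50868 genes, and all 10 were found. The group was chosen by its read counts in the libraries described here, with the differences already known, and the study itself names IGF2. The values are therefore a description, and no test was made on them.

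RNA was sequenced from MOLM-13, a human acute myeloid leukemia line with a KMT2A::MLLT3 fusion, in 1 library of cells with the control vector (Vector) and 1 library labelled OE-UNC5B. In the study's methods, the UNC5B construct was driven by a CMV promoter in a lentivirus made in HEK-293T cells, carried a FLAG tag and mCherry, and was selected with puromycin. The comparison asked which adhesion and proliferation genes differ once UNC5B, a netrin receptor, is overexpressed. No read was counted for UNC5B, with 0 in either library, so the overexpression cannot be seen in these counts and every direction below rests on the labels. Vector comprised 13715566 reads and the library labelled OE-UNC5B 15637137. Wherever a pair of values is given for a gene, Vector comes first. All 13 myeloid markers examined, among them CD33, FLT3, MPO and LYZ, passed 50 reads, and MPO and LYZ fell, with log2 fold changes of -1.35 and -1.36, while the median of the 13 was 0.14 and 7 lay above 0.

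Log2 fold changes are the library labelled OE-UNC5B over Vector, with TMM scaling and 0.5 reads added, and a gene is called changed here at 2-fold or more if the libraries together gave 10 reads or more. Each group is a single library, so differences have no replicate check, and the 95% intervals given are exact binomial intervals of the reads that cover counting error only. Reads carried no molecular identifiers, so even counting error may be understated. Of the 10 genes, 7 had 50 reads or more in sum, 2 (IGFBP2 and IGFBP5) had 10 to 49, and IGF2BP1 had 6. The genes on either side of the 50-read limit were IGFBP2, with 49 reads in sum, and IGF2, with 79.

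Upstream sequence is shown for the pair of binding protein genes that fell and for the pair of genes with the highest log2 fold changes, IGF2R and IGF2BP3. Each is the 250 bases before the start of the main transcript, from RefSeq on GRCh38.p14, read 5′ to 3′ on the strand of the gene. IGFBP2 had 3 entries, and the window at its main start lies inside the gene span of the table, which begins upstream. The windows are chr2:216695550-216695799 on the minus strand for IGFBP5, chr2:216633170-216633419 on the plus strand for IGFBP2, chr6:159968832-159969081 on the plus strand for IGF2R and chr7:23470492-23470741 on the minus strand for IGF2BP3. Capitals mark matches on either strand to a TATA-like run, TATTTAA, to the GC box, whose letters are GGGCGG, and to the E-box that reads CACGTG.
IGFBP5: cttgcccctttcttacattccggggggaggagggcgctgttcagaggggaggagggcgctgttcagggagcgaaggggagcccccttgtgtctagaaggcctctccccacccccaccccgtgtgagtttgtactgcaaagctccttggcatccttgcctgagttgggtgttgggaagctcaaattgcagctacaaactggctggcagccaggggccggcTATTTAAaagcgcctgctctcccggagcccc
IGFBP2: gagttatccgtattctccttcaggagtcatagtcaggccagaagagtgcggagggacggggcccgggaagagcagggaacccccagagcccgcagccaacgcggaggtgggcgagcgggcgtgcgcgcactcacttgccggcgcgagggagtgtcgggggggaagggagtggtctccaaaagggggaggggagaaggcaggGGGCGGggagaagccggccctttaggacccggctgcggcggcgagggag
IGF2R: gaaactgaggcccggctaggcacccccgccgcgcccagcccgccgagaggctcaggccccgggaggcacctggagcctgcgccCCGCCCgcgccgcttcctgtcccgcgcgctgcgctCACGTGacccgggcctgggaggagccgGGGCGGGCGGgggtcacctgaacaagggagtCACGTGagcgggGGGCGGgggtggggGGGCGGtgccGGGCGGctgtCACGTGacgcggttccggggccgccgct
IGF2BP3: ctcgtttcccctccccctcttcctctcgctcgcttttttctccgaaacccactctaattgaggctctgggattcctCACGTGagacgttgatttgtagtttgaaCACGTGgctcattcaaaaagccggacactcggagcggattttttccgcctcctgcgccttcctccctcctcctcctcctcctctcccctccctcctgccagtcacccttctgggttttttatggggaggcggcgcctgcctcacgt
IGFBP5 held 1 TATTTAA, a match found in 4.17% of 35114 promoter windows of the same length. IGF2R held 3 CACGTG matches and IGF2BP3 held 2, while 6.35% of all windows held at least 1. GGGCGG, present in 42.6% of all windows, occurred 6 times in IGF2R, some of them overlapping, and 1 time in IGFBP2. TATAAA was also searched and occurred in none of these 4 windows. It occurred 1 time in the window of IGFBP4 and in 10.7% of all windows. IGF2R was rich in CpG, with 33 CpG dinucleotides against a median of 11 over all windows, IGFBP2 had 22, IGF2BP3 had 15 and IGFBP5 had 8. The motifs were chosen with these sequences in view and are letters in a window, not binding sites. IGF2 and IGF2BP1 had no entry.

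**Figure D1:**
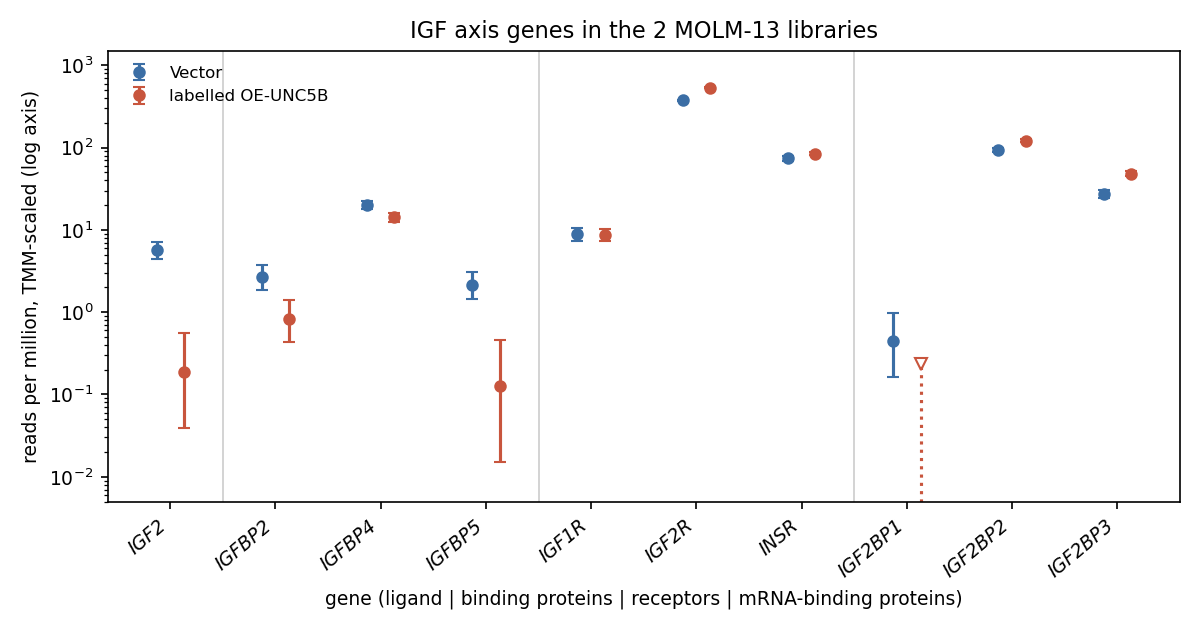
CPM, the reads scaled to library size with TMM (log axis), of the 10 genes in Vector (blue) and in the library labelled OE-UNC5B (red), 1 library each, with 95% Poisson intervals of the reads. The open triangle is the upper limit for IGF2BP1, which had 0 reads in that library. IGF2, IGFBP2, IGFBP5 and IGF2BP1 lie under 6 CPM in Vector and lower in the other library, while IGF2R lies at 373 and 533.

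The receptors and the more abundant RNA-binding proteins carried most of the signal. Levels between genes are compared as deposited FPKM, in which reads are divided by gene length and library total. In Vector, IGF2R was highest at 23.2 FPKM, followed by IGF2BP2 at 11.4, IGFBP4 at 8.95, INSR at 5.87 and IGF2BP3 at 1.91. The counting intervals of these 5 neighbours in the order did not overlap. IGF2 at 0.561 FPKM, IGFBP2 at 0.358, IGF1R at 0.352 and IGFBP5 at 0.283 followed, and each overlapped the next. IGF2BP1 was last at 0.0414 FPKM. In the library labelled OE-UNC5B the same 5 genes led, with INSR at 6.93 FPKM and IGFBP4 at 6.54 overlapping each other. IGF2 stood there at 0.0194 FPKM and IGFBP5 at 0.0171, below IGF1R at 0.359. The length behind the FPKM values exceeded that of the main transcript for 9 of the 10 genes, all but IGFBP4. It was 7326 nt for IGFBP2, whose main transcript in GENCODE 44 has 1414 nt. With main transcript lengths, IGFBP2 stood above IGF2 in Vector, with 1.86 against 0.993 reads per kilobase, scaled to library size. In the library labelled OE-UNC5B, IGF2BP3 at 11.4 then stood above INSR at 9.09 and IGFBP4 at 6.53.

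IGF2 fell, from 76 Vector reads to 3 from the library labelled OE-UNC5B. It encodes the fetal growth factor and occupies chr11:2129112-2141238 (GRCh38, minus strand), as the table gives it, and its main transcript has 4 exons. The 2 libraries were far apart relative to counting error, with 95% Poisson intervals of 59.9 to 95.1 reads and 0.619 to 8.77 reads. The log2 fold change was -4.69 (95% interval -7.21 to -3.30), or 25.8-fold lower with an interval from 9.84-fold to 148-fold. Of the 12290 genes with 50 reads or more, 5 had a lower log2 fold change than IGF2. Even in Vector the gene was scarce: 12566 genes had a higher FPKM. In bulk RNA, fewer cells that make a transcript and less transcript per cell cannot be told apart.

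No other gene of the table around IGF2 carried reads. In GENCODE 44 a protein-coding gene without a symbol shares 2711 bases, 37.9% of the exon bases of IGF2, on the same strand, and has no row of its own in the table used here. INS-IGF2, a readthrough gene that shares exons with it on the same strand, and IGF2-AS, which lies opposite, had 0 reads in both libraries. All 5 genes of the table within 100 kb were at 0 reads in both libraries, including INS and TH. H19, the imprinted noncoding RNA that lies downstream of IGF2, also had 0 reads in both libraries. IGF1, the other ligand of the family, had 0 and 1 reads, and INS had none in either library.

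The 5 protein-coding genes nearest to IGF2 over the 2 libraries, by Euclidean distance of log2 CPM, were UBAP1L, POLR2J2, PIR, AL360181.3 and COL3A1. Their distances ran from 0.65 to 1.03. UBAP1L had 79 and 5 reads. POLR2J2, whose near-identical copies make its count uncertain, had 67 and 5 reads. Because they were picked by nearness to IGF2, all of these genes were by construction scarce in Vector and scarcer in the other library. PIR had 42 and 3 reads. AL360181.3 had 39 and 4 reads. COL3A1, a fibrillar collagen, had 108 and 6 reads. With 1 library per group, this likeness rests on a pair of values for each gene.

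**Figure D2:**
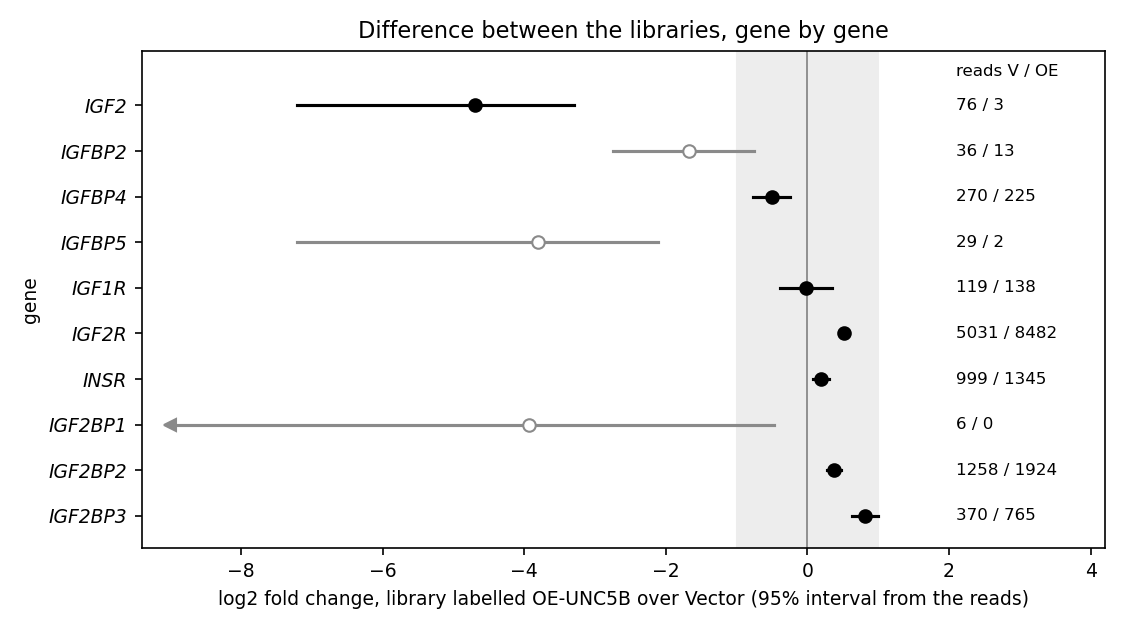
Log2 fold change of each gene (horizontal axis, library labelled OE-UNC5B over Vector) with its 95% interval from the reads; filled black points have at least 50 reads over both libraries and open grey points fewer, and the grey band spans less than 2-fold. Read counts in Vector (V) and the library labelled OE-UNC5B (OE) stand at the right; IGF2 at -4.69 lies clear of the band, and the arrow marks an interval with no lower end for IGF2BP1.

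Both binding protein genes of chromosome 2 fell. IGFBP5, the most conserved member of the family and one that also binds matrix, had 29 Vector reads and 2 from the library labelled OE-UNC5B. The log2 fold change was -3.80 (95% interval -7.21 to -2.11), or 13.9-fold lower with an interval from 4.32-fold to 148-fold. IGFBP2, which binds IGF2 with some preference over IGF1, had 36 Vector reads and 13 from the library labelled OE-UNC5B. The log2 fold change was -1.67 (95% interval -2.75 to -0.76), an interval that includes changes under 2-fold. The genes stand tail to tail with 7669 bases between them, IGFBP2 at chr2:216632828-216664436 on the plus strand and IGFBP5 at chr2:216672105-216695525 on the minus strand. RPL37A, a ribosomal protein gene 53648 bases beyond IGFBP2, had 10660 and 11764 reads, a log2 fold change of -0.09. The other genes of the table within 100 kb of this pair had 0 reads in both libraries.

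IGFBP4, which mainly restrains IGF action and is cut by the protease pappalysin, was the most abundant binding protein among the 10 genes. Its gene occupies chr17:40443461-40457731 on the plus strand. Its reads numbered 270 and 225, a log2 fold change of -0.50 (95% interval -0.76 to -0.24), which did not reach 2-fold. Outside the 10 genes, IGFBP7, a relative that binds the ligands weakly, had the highest level of IGFBP1 to IGFBP7 at 53.6 and 59.3 FPKM. It had 1512 and 1907 reads, a log2 fold change of 0.10. IGFBP3, the main carrier in serum, had 12 and 2 reads, a log2 fold change of -2.56 (95% interval -6.02 to -0.65). IGFBP6 had 3 and 0 reads and IGFBP1 none. Summed over IGFBP1 to IGFBP7, the family had 1862 and 2149 reads, a log2 fold change of -0.03 (95% interval -0.12 to 0.06). Without IGFBP7 the sum was 350 and 242 reads, a log2 fold change of -0.77 (95% interval -1.01 to -0.53).

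Markers of other cell types were counted beside the IGF genes, since IGF2, IGFBP5 and IGF2BP1 are also made by other lines and tissues. The 12 fibroblast markers summed to 155 and 21 reads, and all 4 with at least 10 reads were lower by 2-fold, COL3A1, COL1A1, COL1A2 and TWIST1. Of these, COL1A1, COL1A2 and TWIST1 had 10 to 49 reads, where 14.2% of all genes were lower by 2-fold. Of that list DCN, POSTN, FBLN1 and FAP were at 0 reads in both libraries. The 13 HEK293 markers held 267 and 233 reads, of which ZIC2 gave 240 and 211 and VGF 13 and 16. CDH2 gave 6 and 0 reads, KRT18 5 and 2, UCHL1 3 and 2, and LHX1 0 and 2. KRT8, PAX2 and EPCAM were among 7 at 0 reads in both libraries. The 13 endothelial markers held 1637 and 1482 reads, nearly all from PECAM1, with CDH5 and KDR among 8 at 0. The 11 hepatocyte markers held 12 and 4 reads, all from SERPINA1. The 10 skeletal muscle markers held 134 and 195 reads, with MYH3 at 101 and 190, DES at 14 and 1 and TTN at 8 and 3. MYOG had 5 and 0 reads, MYOD1 4 and 0, ACTA1 2 and 1, and CKM was at 0. The part of other cells in the IGF values was not tested.

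The receptor genes did not pass 2-fold. IGF2R, at chr6:159969099-160113507 on the plus strand, gave 5031 Vector reads and 8482 from the library labelled OE-UNC5B. The log2 fold change was 0.52 (95% interval 0.47 to 0.57), or 1.43-fold higher, and 12.4% of genes with at least 50 reads had a higher value. INSR, at chr19:7112255-7294034 on the minus strand, had 999 and 1345 reads, a log2 fold change of 0.19 (95% interval 0.07 to 0.31). IGF1R, at chr15:98648971-98964530 on the plus strand, had 119 and 138 reads, a log2 fold change of -0.02 (95% interval -0.39 to 0.34), and its sign turned with the scaling. In FPKM, INSR exceeded IGF1R by 16.7-fold in Vector and by 19.3-fold in the other library. IGF2R exceeded IGF1R by 65.7-fold and 95.5-fold. With main transcript lengths these ratios were smaller, at 10.9-fold and 12.6-fold for INSR and 36.8-fold and 53.5-fold for IGF2R. AIRN, the noncoding RNA antisense to IGF2R, had 0 reads in both libraries.

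IGF2BP2 and IGF2BP3 were the IGF2BP genes with a sizeable number of reads, and neither reached 2-fold. IGF2BP2, the member that stays active in adult tissues, occupies chr3:185643739-185825056 on the minus strand. Its reads numbered 1258 and 1924, a log2 fold change of 0.38 (95% interval 0.27 to 0.48). IGF2BP3, an oncofetal member known for its high level in leukemias with KMT2A fusions, occupies chr7:23310209-23470467 on the minus strand and had 370 and 765 reads. Its log2 fold change was 0.81 (95% interval 0.63 to 0.99), or 1.75-fold higher, and 5.13% of genes with at least 50 reads had a higher value. IGF2BP1, at chr17:48997412-49055650 on the plus strand, had 6 Vector reads and 0 from the library labelled OE-UNC5B. Set against a floor of 3 reads it was 2.36-fold lower, a figure that leaves out counting error. The 95% interval from the reads came as near as 1.39-fold lower, and with under 10 reads the gene was not called. By FPKM, IGF2BP2 made up 85.4% of the family in Vector and 81.5% in the other library, and IGF2BP3 made up 14.3% and 18.5%. The length behind the FPKM of IGF2BP3 was 14102 nt, against 4274 nt for its main transcript, and with main transcript lengths its shares were 22.7% and 28.5%. The 3 genes together held 1634 and 2689 reads, a log2 fold change of 0.48 (95% interval 0.39 to 0.57).

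The value of IGF2BP3 is uncertain because its exons overlap those of MALSU1, a mitochondrial ribosome assembly gene on the opposite strand. The main transcripts share 1521 bases at their 3′ ends, at chr7:23310209-23311729, out of 4274 nt in the main transcript of IGF2BP3. Over all annotated exon bases of IGF2BP3, which include those of other transcripts, the shared part is 17.8%. MALSU1 had 385 and 186 reads, a log2 fold change of -1.28 (95% interval -1.55 to -1.03). The pair thus differed in opposite directions. Counted together they held 755 and 951 reads, a log2 fold change of 0.10 (95% interval -0.04 to 0.24). Whether the counting used strand is not given in the sources used here, and without strand reads from the shared bases cannot be told apart. The pseudogene CHP1P2, which shares 571 exon bases with IGF2R on the same strand, had 48 and 79 reads and did not alter the value of IGF2R, which was 0.52 with its reads added.

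**Figure D3:**
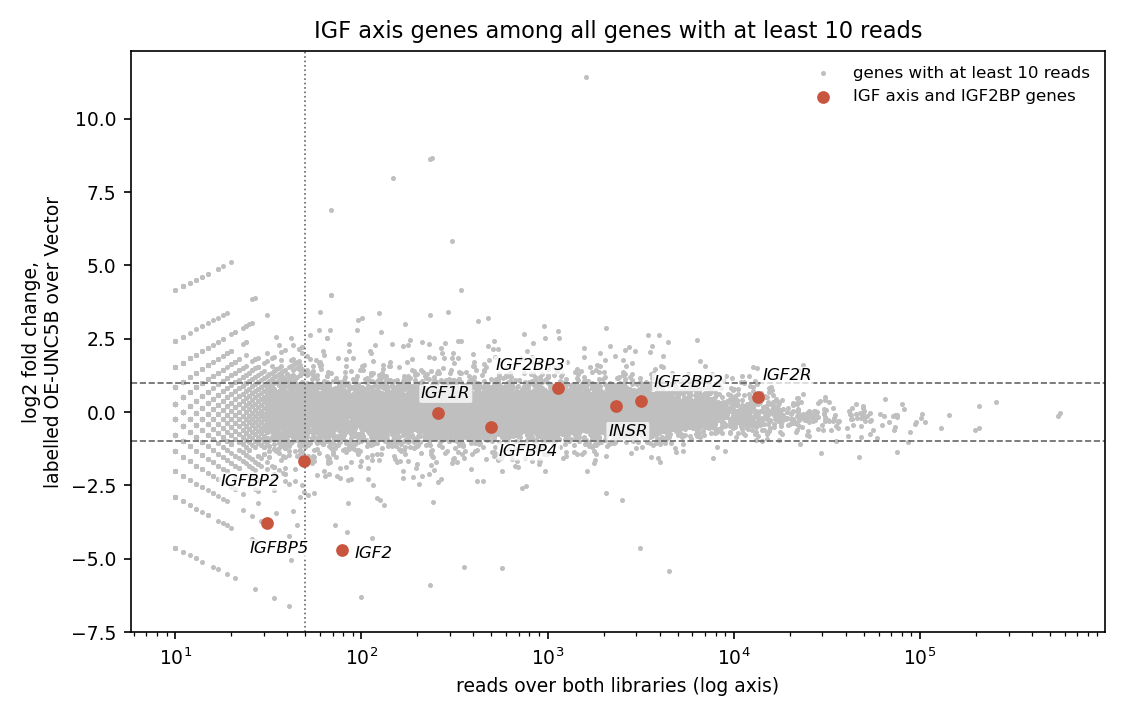
Log2 fold change (vertical axis, library labelled OE-UNC5B over Vector) against reads over both libraries (log axis) for the 15384 genes with at least 10 reads (grey) and the 9 of the 10 genes that pass this minimum (red). Dashed lines mark 2-fold and the dotted line 50 reads; IGF2, IGFBP5 and IGFBP2 lie below the lower dashed line, at the sparse end, and the other 6 lie between the lines.

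Of the 9 genes with at least 10 reads, 3 were lower by 2-fold or more and 0 were higher. Among all 15384 genes with at least 10 reads, 4.79% were lower by that much and 5.15% were higher. The share depended on depth. Of all genes with 10 to 49 reads, 14.2% were lower by 2-fold and 14.0% higher, and both IGF genes of that class, IGFBP2 and IGFBP5, were lower. Of all genes with 50 reads or more, 2.42% were lower by 2-fold and 2.92% higher, and 1 of the 7 IGF genes, IGF2, was lower. IGF2 and IGF1R had 50 to under 500 reads, a range in which 4.45% of genes were lower and 4.84% higher. IGFBP4, with 495 reads, fell in the same class. IGF2R, INSR, IGF2BP2 and IGF2BP3 had more, and among genes with 500 reads or more 1.39% were lower and 1.96% higher. IGF2 and IGFBP5 also passed 4-fold, as did 1.15% of all genes in that direction, against 1.0% in the other. These 4-fold shares were not split by depth, although both genes were sparse. At 1.5-fold, 12.5% of all genes were lower and 12.9% higher, and IGF2BP3 would count among the higher ones. The median log2 fold change of the 9 genes was -0.02, against -0.01 for all genes. The genes were listed with these differences known, so nothing about the group is read from these shares.

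Genes around the axis were examined in 7 lists. They held 137 genes, of which 105 had at least 10 reads and 17 had 0 reads in both libraries. Of the 105, 3 were lower by 2-fold (2.86%) and 6 were higher (5.71%). Of the listed genes, 100 had 50 reads or more, and 1 of these was lower and 6 were higher, beside 2.42% lower and 2.92% higher over all genes of that depth. The genes were listed with results known, so no test was made of this. Over the 105 genes the median log2 fold change was 0.03.

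Among proteases that cleave IGF binding proteins and the regulators of these proteases, 1 of 6 genes rose and 0 fell, beside 5.15% higher and 4.79% lower over all genes with at least 10 reads. STC2, a secreted inhibitor of the pappalysins that cleave IGFBP4 and IGFBP5, had 213 and 1852 reads, a log2 fold change of 2.88 (95% interval 2.68 to 3.09). PAPPA, the pappalysin itself, had 2 and 0 reads, and PAPPA2 had 6 and 12. PLAU, CTSD and FURIN, the proteases with the most reads, had log2 fold changes of -0.16, -0.18 and 0.40.

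In receptor signalling, 3 of 44 genes rose and 1 fell, with a median of 0.08. Of the 44, 43 had 50 reads or more, where 2.92% of all genes were higher and 2.42% lower. GRB10, an adaptor that restrains the insulin and IGF1 receptors, had 436 and 1395 reads, a log2 fold change of 1.44 (95% interval 1.28 to 1.60). RICTOR, which defines mTOR complex 2, had 496 and 1509 reads, a log2 fold change of 1.37. PIK3CA, a catalytic subunit of PI3 kinase, had 246 and 660 reads, a log2 fold change of 1.18. IRS1, a docking protein of both receptors, had 32 and 18 reads, a log2 fold change of -1.05 (95% interval -1.99 to -0.19). IRS2 had 679 and 678 reads, a log2 fold change of -0.24. Of the genes with many reads, EIF4EBP1 had a log2 fold change of 0.58 and INPP5D of 0.26.

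FOXO factors are held out of the nucleus by insulin and IGF signalling, and their target genes were listed for that reason. Of 16 with at least 10 reads, 2 rose and 0 fell, with a median of -0.15. All 16 had 50 reads or more, a depth at which 2.92% of all genes were higher and 2.42% lower. TXNIP, which limits glucose uptake, had 1345 and 5255 reads, a log2 fold change of 1.73. BCL2L11, which encodes the death protein BIM, had 95 and 389 reads, a log2 fold change of 1.79. CAT, CDKN1B and SOD2, which had the most reads of the rest, had log2 fold changes of -0.66, 0.11 and -0.18.

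**Figure D4:**
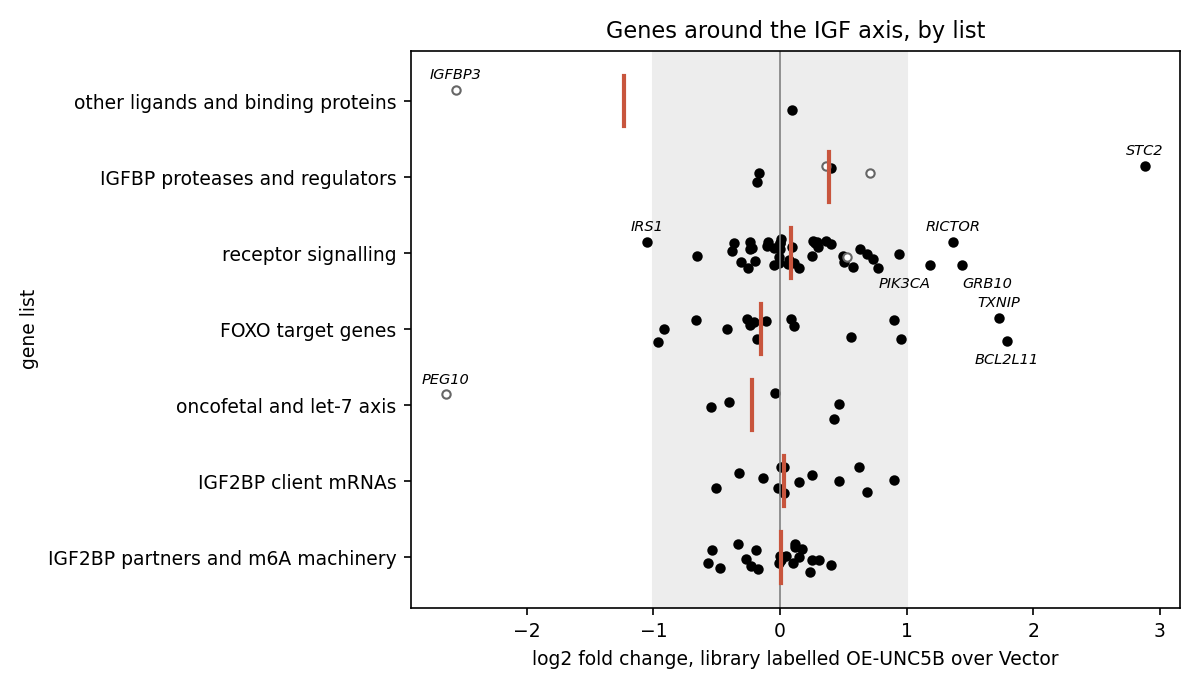
Log2 fold change (horizontal axis, library labelled OE-UNC5B over Vector) of each listed gene with 10 reads or more in sum; filled points have at least 50 reads, open points fewer, red bars are list medians, and vertical scatter only separates the points. The grey band spans less than 2-fold, and the 9 named genes lie outside it: STC2 lies farthest to the right at 2.88 and PEG10 farthest to the left at -2.64.

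Of the oncofetal and let-7 axis genes, 1 of 6 fell and 0 rose. The gene that fell, PEG10, had 10 to 49 reads, where 14.2% of all genes were lower. PEG10, an imprinted gene, had 18 and 3 reads, a log2 fold change of -2.64 (95% interval -5.23 to -1.05). HMGA2, a let-7 target like the IGF2BP genes, had 9 and 0 reads, and LIN28A and LIN28B, the let-7 inhibitors, had 0 reads in both libraries. HMGA1, ARID3A and PLAGL1, which had the most reads of the list, had log2 fold changes of -0.41, -0.04 and -0.55.

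None of the 13 IGF2BP client mRNAs with at least 10 reads and none of the 21 partner and m6A genes passed 2-fold. All of them had 50 reads or more, where 2.42% of all genes were lower and 2.92% higher, so lists of this size would hold few such genes in any case. Among the clients, ACTB had a log2 fold change of -0.51, MYB of 0.03, CDK6 of 0.62 and MYC of 0.15. Among partners of the RNA-binding complex, PABPC1 had a log2 fold change of 0.12, HNRNPU of 0.15 and YBX1 of -0.47. The medians of the lists were 0.03 and 0.01.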

How the data were processed

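RNA-seq of 2 MOLM-13 libraries, 1 per group, was analysed. The table deposited by the authors gives unnormalised counts for each gene and FPKM values, whose scale follows the count totals. The submitters' processing notes name bcl2fastq 2.19, HISAT2 2.0.4, StringTie 1.3.0 and GRCh38. The annotation release and the use of strand are not given in the sources used here, and the coordinates of 1 of the 10 genes were identical in GENCODE 44. A sum of 10 reads or more was required, which 15384 genes had, with medians of 269.5 and 316 reads (Vector first). TMM factors, from edgeR 4.0.16 in R 4.3.3, were 0.984 and 1.02, and 0.5 reads were added for log2 fold changes. A floor of 3 reads equalled 0.222 and 0.189 CPM. Intervals (95%) were exact binomial for ratios and exact Poisson for counts (scipy 1.17.1). No test of the conditions can be fitted with 1 library per group. Reads of the 2 rows named MATR3 were summed. Overlaps and main transcripts (MANE Select) came from GENCODE 44. The procedure was tested on simulated counts. The 10 genes and the gene lists were chosen with earlier results of these data known. Named genes were UNC5B, the 10 genes, listed genes past 2-fold and the 3 others of each list with the most reads. Also named were neighbours within 100 kb with at least 10 reads, overlapping genes and the 5 genes nearest to IGF2. Other genes named were chosen after their values were seen. Of the genes this rule names, 1 has its value left out of the text. As alternatives, scaling by library totals or by size factors of DESeq2 1.42.0 was tried, and 2 reads added, FPKM with 0.1 or 1 added, no filter, at least 50 reads, and folds of 1.5 and 4.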

Additional observations from a re-analysis of the deposited data

How the results depend on the processing

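No paired analysis was possible because each group is a single library, and for that reason no replicate could be left out. Of the 10 genes, none past 2-fold changed sign under the scalings, added reads and FPKM settings, and listed pathway genes were followed by counts alone. With library totals, DESeq2 size factors or 2 reads added, the log2 fold changes of the 10 genes stayed within their counting intervals and the same number of them, 3, was lower by 2-fold. IGF1R, near 0, ranged from -0.03 to 0.02. Adding a constant to FPKM shrinks low genes by construction. With 0.1 added, IGF2 was at -2.47 and IGFBP5 at -1.71, and 0 listed pathway genes were lower by 2-fold and 6 higher, while 430 of all genes were lower and 583 higher. Of the 10 genes, 3 were lower by 2-fold there. With 1 added, IGF2 was at -0.61, IGFBP5 at -0.33, IGFBP2 at -0.29, IGF2BP1 at -0.058 and IGF2BP3 at 0.62, and 0 of the 10 genes and 0 pathway genes were lower by 2-fold and 4 pathway genes higher, while 123 of all genes were lower and 161 higher. Without a filter, 13 pathway genes were lower and 10 higher, from more genes counted, while 3079 of all 22138 genes were lower and 2886 higher. With at least 50 reads, 1 of the 10 genes and 1 pathway gene were lower and 6 pathway genes higher, from fewer genes counted. Of all 12290 genes of that depth, 297 were lower and 359 higher. At 1.5-fold, 3 of the 10 genes were lower and 1, IGF2BP3, was higher. There, 7 pathway genes were lower and 16 higher, while 1925 of all 15384 genes were lower and 1989 higher. At 4-fold, 1 pathway gene was higher and 2 were lower, while 154 and 177 of all 15384 genes were. Levels per main transcript length, chosen after seeing the data, left the counting interval of the FPKM in 13 of 20 values. Depth limits IGF2, IGFBP5 and IGF2BP1 in the library labelled OE-UNC5B, where each had at most 3 reads.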
